A study of Mus musculus with 3 samples.

Results

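The genes described here are 10 regulators of early lymphoid development: the transcription factor genes Ebf1, Pax5, Ikzf1, Ikzf3, Tcf7, Gata3, Bcl11a and Bcl11b, the recombinase gene Rag1 and the cytokine receptor gene Il7r. They were taken by name, not by their values, and are 10 of 21883 protein-coding gene records on chromosomes 1 to 19, X and Y. For each gene every H3K9ac summit inside its mm10 record or within 20 kb of a record end was taken, and this stretch is called its window. The 10 windows held 23 of 33248 summits of the library labelled young HSC, 91 of 108787 of the library labelled old HSC and 29 of 45386 of the library labelled old HSC ABC.

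The acetyl mark H3K9ac is found at the promoters and enhancers of active genes. In CUT&Tag an antibody against the mark tethers a transposase, which cuts and tags the DNA nearby. All 3 groups were haematopoietic stem cells (HSCs) sorted from femur and tibia marrow of wild-type mice, with 50000 sorted cells per assay and 1 library per group. Donors were 2 to 4 months old for young HSC and 18 to 24 months old for old HSC and old HSC ABC. The labels do not spell out ABC, the sorting gate or whether animals were pooled. The sample name written into each list went against its label: the young-labelled and ABC-labelled lists carry names of old HSC samples, and the old-labelled list carries one of an old HSC ABC sample. Groups below follow the labels, and every direction holds for the libraries as labelled. Because each group is 1 library, no value has a replicate error, no test was run, and a difference between 2 libraries is not shown to be one between conditions.

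An HSC gives rise to all blood lineages, and before a progenitor commits to the B or T cell fate, some lymphoid genes carry active chromatin at a low level, which is called lymphoid priming. Ikaros (Ikzf1) and Bcl11a act at this first stage. EBF1 and then PAX5 specify and lock in the B cell fate, while TCF1 (Tcf7), GATA3 and Bcl11b do so for T cells downstream of Notch signals. The IL-7 receptor carries survival signals in lymphoid progenitors, and RAG1 with RAG2 cuts DNA to rearrange antigen receptor genes.

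A list of summits grows with sequencing depth, which is unknown here, so counts are given for the lists as deposited and for equal-length lists. An equal-length list holds the 33248 summits with the highest scores of a library, which is the whole young-labelled list, old-labelled summits with scores from 5.86 up and ABC-labelled ones from 2.84 up. The authors' score is read as the −log10 q-value of the peak caller. It was used for ranks within a list, where rank 1 is the highest score. Alternative settings also used score minimums of 5 and 10, which set scores of libraries of unknown depth side by side. As deposited, 8 of the 10 genes had a window summit in the young-labelled library (72.0% of all protein-coding genes did), 10 for old (81.7%) and 9 for ABC (76.1%). In equal-length lists the counts were 8, 9 (73.3%) and 8 (72.5%). These shares lie near those of all genes, and each gene of the list weighs 10 percentage points.

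Values in threes are given in the order young, old and ABC. Ikzf1 held most summits, with 6, 16 and 8 as deposited (Bcl11a also had 16 old-labelled ones) and 6, 9 and 7 in equal-length lists. At the other end Il7r had 0, 2 and 0 as deposited and none in any equal-length list. Bcl11b, with 0, 10 and 1 as deposited, kept 0, 1 and 0. Over the 10 genes the median was 2, 9 and 2 as deposited (2, 6 and 3 over all protein-coding genes) and 2 in each equal-length list, as over all genes. The old-labelled total was 3.96 times the young-labelled one, beside a ratio of list lengths of 3.27, and 25 against 23 in equal-length lists.

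**Figure D1:**
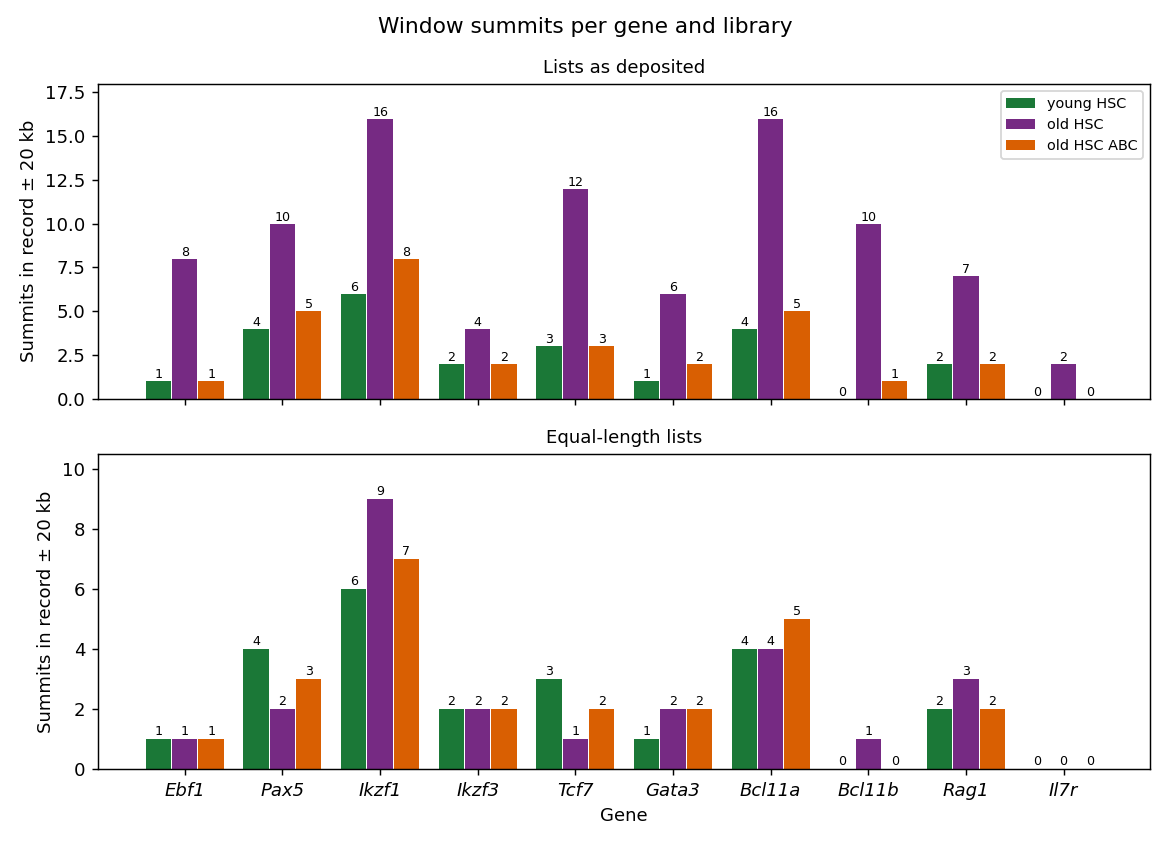
Bars give the number of H3K9ac summits in the record of each gene and 20 kb beyond each end (y axis) for the 3 libraries, 1 per group, so there are no error bars. The upper panel shows lists as deposited, where old HSC is highest for all 10 genes, and the lower panel shows equal-length lists, where Ikzf1 has 6, 9 and 7 summits and Il7r has 0 in each.

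Ebf1, the first specifying factor of the B lineage (chromosome 11, 44618100 to 45008096), has the longest record of the list at 390 kb, and few summits for that length. The young-labelled library had 1 window summit, 7947 bp before the first annotated start, at 44610153 with score 4.03 and rank 18208. The ABC-labelled library also had 1, at 44610119, 34 bp away, with score 3.28 and rank 28299. These adjoining upstream summits were the only ones of Ebf1 in these libraries, and the record itself held none. The old-labelled list had none there. It had 7 inside the record and 1 at 45008301, 205 bp beyond the far end, which was its strongest with score 8.25 and rank 20901. The 7 inside lay 21546 to 220602 bp after a start, ranked from 40378 to 107616, and none of them reached the equal-length list. No Ebf1 position was thus shared between the old-labelled library and another one.

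Pax5, the factor that maintains B cell identity (chromosome 4, 44524748 to 44710694, 186 kb), had 4, 10 and 5 summits, and 4, 2 and 3 in equal-length lists. None of them was near the annotated start at 44710694, on the minus strand. The nearest lay 32173, 31094 and 46163 bp from it, and the last of these was outside the window. The single position found in all 3 libraries was at the opposite end of the record, at 44526133, 44526094 and 44526063, with ranks 10423, 23272 and 19955. A second position, 70.5 kb into the gene, was shared by the ABC-labelled list (44640170, its strongest Pax5 summit, rank 16887) and the old-labelled list (rank 96734). The other 14 Pax5 positions were each found in 1 library (3 young-labelled, 8 old-labelled and 3 ABC-labelled).

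Ikzf1, which encodes the zinc finger factor Ikaros (chromosome 11, 11684962 to 11772930), was marked next to its start in every library. The summit lay 759 bp after the start at 11685925, at 11686684, 11686683 and 11686684. Its scores were 16.6, 23.6 and 10.2 and its ranks 2518, 6454 and 5352, the best rank of Ikzf1 in each. A pair of further positions was shared by all 3 libraries, 1 on each side of the gene. The upstream one, 18.4 kb before the start and inside the record of the non-coding gene Gm11999, had ranks 12868, 23272 and 12110. The downstream one lay beyond the far end of the record, at 11786167, 11785976 and 11786140, with ranks 10718, 16687 and 6894. Of 19 Ikzf1 positions in all, 3 were in all libraries, 5 in 2 libraries and 11 in 1, and 8 of these 11 were in the old-labelled list. Of the 3 Ikzf1 positions that the old-labelled list lacked, the best-ranked was ABC-labelled, at 11697620, 7443 bp after the nearest start, with score 8.03 and rank 7886. An old-labelled summit (11690436, rank 44065) lay 259 bp after the second annotated start of Ikzf1 at 11690177, where the other libraries had none within 1 kb.

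Ikzf3, the related gene for Aiolos, which acts later in B cells (chromosome 11, 98464610 to 98546031), had 2, 4 and 2 window summits, but its own 81.4 kb record held only 1. That summit was old-labelled, at 98518622 with score 4.47 and rank 47830. The strongest window summit in each library, at 98551384, 98551386 and 98551384 with ranks 6246, 9971 and 4788, lay 287 or 289 bp from the start of the neighbouring gene Zpbp2. The other young-labelled summit and both remaining old-labelled ones lay in the records of Mien1 or Grb7, and the other ABC-labelled one lay 6074 bp outside the Ikzf3 record in no protein-coding gene. The Ikaros family members of this list thus differed in where their strongest window summit was in all 3 libraries. It was near the start of Ikzf1 itself and near the start of a neighbour of Ikzf3.

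Bcl11a, a zinc finger factor needed for lymphoid progenitors (chromosome 11, 24076564 to 24173558), had 4, 16 and 5 summits, and 4, 4 and 5 in equal-length lists. Its strongest summit fell on the same base, 24081060, in all 3 libraries, 365 bp after the annotated start at 24080695. The scores there were 8.97, 31.1 and 7.32 and the ranks 7095, 4266 and 9141. Inside the gene, positions 21.2 kb and 76.6 kb after the start were also found in all 3 libraries, with ranks from 17461 to 38579. Bcl11b, the related factor of T cell commitment (chromosome 12, 107910403 to 108004145), is of similar record length, at 93.7 kb against 97.0 kb. It had no young-labelled summit in its window, and the nearest one to its start was 34038 bp away. Its only ABC-labelled summit, at 107989885 with score 2.25 and rank 39741, adjoined the strongest of its 10 old-labelled summits (107990033, score 7.31, rank 24641), and the pair lay 13529 and 13381 bp after the start. The other 9 old-labelled summits ranked between 62995 and 95148. No library had a summit within 1 kb of the Bcl11b start.

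The genes with a start summit in all 3 libraries are shown first by the 250 bases before that start, 5′ to 3′ in the direction of transcription, at chr11:11685675-11685924 (plus strand) for Ikzf1 and chr11:24080445-24080694 (plus strand) for Bcl11a. Sequences are RefSeq's for GRCm38.p6, the assembly that mm10 names. Capitals mark matches on either strand to 7 short motifs, and no matches overlap in the windows printed here. The ETS factor motif was searched as GGAAGT. The motif of RUNX factors, which act throughout lymphoid development, was TGTGGT. For E proteins the E box CAGCTG was taken. The motif of the GATA factor family was AGATAA. For the TATA box the letters were TATAAA. The CCAAT box was searched by its own letters. The GC box, which SP and KLF factors bind, was GGGCGG.
Ikzf1: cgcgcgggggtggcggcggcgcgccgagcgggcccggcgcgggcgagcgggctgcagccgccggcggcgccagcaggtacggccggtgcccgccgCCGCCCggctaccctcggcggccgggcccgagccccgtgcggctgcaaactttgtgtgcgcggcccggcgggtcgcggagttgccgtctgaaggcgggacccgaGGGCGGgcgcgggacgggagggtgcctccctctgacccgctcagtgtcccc
Bcl11a: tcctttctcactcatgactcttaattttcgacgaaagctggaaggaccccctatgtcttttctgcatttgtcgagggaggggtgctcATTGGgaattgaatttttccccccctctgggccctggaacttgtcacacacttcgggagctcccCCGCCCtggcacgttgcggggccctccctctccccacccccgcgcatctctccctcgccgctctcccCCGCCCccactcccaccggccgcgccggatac
Both hold the GC box at 2 places, and Bcl11a also holds the CCAAT box. The GC box is held by 42.6% of 21262 such windows of protein-coding genes and the CCAAT box by 35.4%. The GATA motif, found in 8.81% of them, is in no window of the 9 genes. The Ikzf1 window has 44 CpG dinucleotides (percentile 99.4 of all windows) and the Bcl11a window 16 (percentile 67.2).

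Tcf7, the gene for TCF1, an early T lineage factor (chromosome 11, 52246527 to 52283383), had 3, 12 and 3 window summits, and 3, 1 and 2 in equal-length lists. Its strongest window summit in every library, with ranks 605, 3219 and 3206, lay 794 to 842 bp from the start of the neighbouring gene Skp1 and inside the Skp1 record. It was also the best-ranked window summit of the 10 genes in the young- and old-labelled lists. Without summits in records of other genes the best ranks of Tcf7 were 21522, 39010 and 20793. A position 6.92 kb after the nearer Tcf7 start was found in all 3 libraries on nearly the same base (52275674, 52275671 and 52275672), with ranks 22732, 98809 and 20793. The summits nearest a Tcf7 start were 6921, 1806 and 6923 bp away, so no library had one within 1 kb.

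Gata3, a zinc finger factor of T cells and innate lymphoid cells (chromosome 2, 9857078 to 9887953), had 1, 6 and 2 summits, none of them in the record of another protein-coding gene. The young-labelled summit at 9871292 (score 5.13, rank 13971) lay 7308 bp after the annotated start. Within 187 bp of it both other libraries had their strongest Gata3 summit on 1 base, 9871479, with ranks 11875 and 11946. Those libraries also shared a summit about 1.23 kb after the start, at 9877371 and 9877372, with ranks 19157 and 13063, where the young-labelled list had none within 500 bp. An old-labelled summit 802 bp before the start (score 3.62, rank 63853) did not reach the equal-length list. In equal-length lists Gata3 had 1, 2 and 2 summits at these 2 shared positions and nowhere else.

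**Figure D2:**
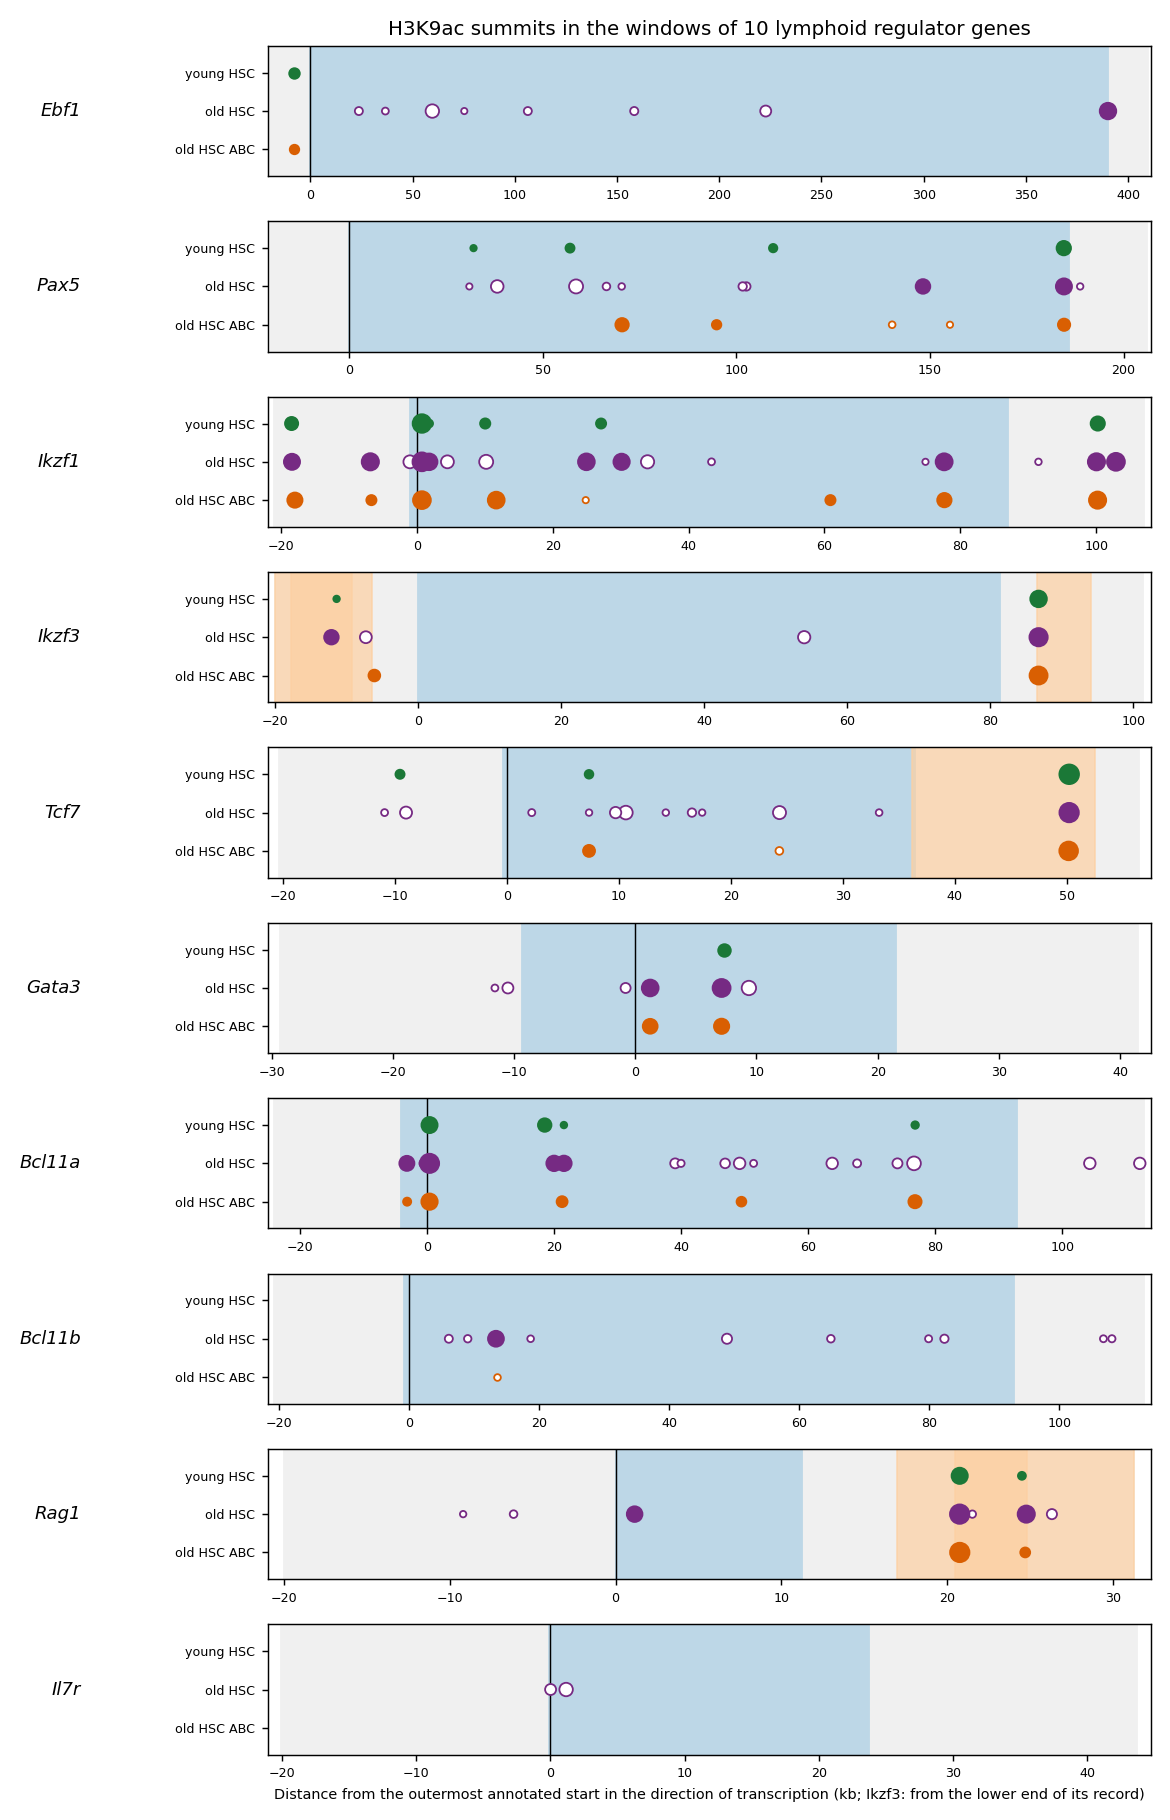
Each panel shows 1 gene, with the distance from its outermost annotated start in kb on the x axis (Ikzf3: from the lower end of its record) and 1 row per library. Circles are summits, larger for better within-list ranks, filled if in the equal-length list; blue marks the gene record, grey the 20 kb flanks, orange records of neighbouring protein-coding genes, and the black line the start. Summits of all 3 libraries line up next to the start of Ikzf1 and Bcl11a, and those of Ikzf3, Tcf7 and Rag1 line up in orange stretches.

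Rag1, which encodes the DNA-cutting subunit of the recombinase (chromosome 2, 101638252 to 101649532), had 2, 7 and 2 window summits, but its 11.3 kb record held 1. That one was old-labelled, at 101648381, 1151 bp after the start, with score 6.91 and rank 26223. It reached the equal-length list. The 2 young-labelled and the 2 ABC-labelled window summits, and 4 of the 7 old-labelled ones, lay in the record of Iftap, which overlaps that of Rag2. The strongest, at 101628766, 101628767 and 101628761, had ranks 6961, 3271 and 1390 and lay 264 to 270 bp from a start of Iftap. The weaker one, at 101625011, 101624749 and 101624812, lay 299, 37 and 100 bp from the start of Rag2, the partner subunit, with ranks 24613, 16568 and 26914. Without summits in these records Rag1 had 0, 3 and 0.

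Il7r, the alpha chain of the IL-7 receptor (chromosome 15, 9506159 to 9529941), had no window summit in the young- or ABC-labelled list, where the nearest to its start lay 66722 and 74528 bp away. The old-labelled list had 2, at 9529854, 22 bp after the start (score 3.92, rank 56862), and at 9528698, 1178 bp after it (score 5.05, rank 40378). Neither reached the equal-length list. Depth and a true lack of the mark in the 2 shorter lists cannot be told apart.

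The windows of 3 genes without a young- or ABC-labelled start summit are shown for contrast: Pax5 at chr4:44710695-44710944, Rag1 at chr2:101649533-101649782 and Il7r at chr15:9529877-9530126, all on the minus strand, with motif matches in capitals as above.
Pax5: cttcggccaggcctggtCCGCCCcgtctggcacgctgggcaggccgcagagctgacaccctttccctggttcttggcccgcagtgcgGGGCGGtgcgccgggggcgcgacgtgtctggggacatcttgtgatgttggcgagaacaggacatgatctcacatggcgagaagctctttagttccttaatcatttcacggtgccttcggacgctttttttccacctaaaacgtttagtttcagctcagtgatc
Rag1: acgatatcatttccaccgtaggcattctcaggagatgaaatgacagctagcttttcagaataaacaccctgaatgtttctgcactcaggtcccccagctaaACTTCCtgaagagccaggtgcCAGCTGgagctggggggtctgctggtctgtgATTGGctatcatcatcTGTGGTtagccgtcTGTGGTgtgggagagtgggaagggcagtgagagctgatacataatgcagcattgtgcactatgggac
Il7r: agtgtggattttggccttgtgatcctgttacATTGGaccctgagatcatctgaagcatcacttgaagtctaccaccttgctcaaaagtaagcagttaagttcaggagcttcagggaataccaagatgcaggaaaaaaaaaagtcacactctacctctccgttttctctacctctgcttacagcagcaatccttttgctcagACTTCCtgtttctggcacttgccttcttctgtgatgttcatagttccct
The Rag1 window holds matches to 4 motifs, the RUNX motif at 2 places, the E box, the ETS motif and the CCAAT box. The Il7r window holds 1 ETS motif and 1 CCAAT box, and the Pax5 window the GC box on both strands. Of all windows 12.4% hold the RUNX motif, 12.1% the E box and 20.4% the ETS motif. These matches are letters found in the window and not sites of binding.

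As deposited, 2 of the 10 genes had a summit within 1 kb of an annotated start in the young-labelled library (45.5% of the 17491 protein-coding genes with a tabled start did), 4 for old (57.9%) and 2 for ABC (46.3%). The 2 were Ikzf1 and Bcl11a, and the old-labelled library added Gata3 and Il7r. In equal-length lists the count was 2 in each, against 45.5%, 49.6% and 43.8% of all genes, and was again made by Ikzf1 and Bcl11a. Ikzf3 has no tabled start and was read at both record ends, where no library had a summit within 1 kb. The share of starts with a summit differed with CpG content. Of the 7170 windows with 0 to 4 CpGs 11.4%, 22.2% and 13.7% had one, and of the 2745 with 15 to 19 CpGs 69.8%, 81.6% and 68.5%. Rag1 and Il7r, with 3 and 1 CpGs, belong to the first of these classes. Pax5 and Gata3, with 19 each, belong to the second. The outer start of Tcf7, with 37 CpGs (percentile 97.5), is in the class of 20 and more, where 68.4%, 81.3% and 67.4% of windows had a start summit. Ebf1 (9 and 14 at its starts) and Bcl11b (9) lie between. CpG-rich starts of Pax5 and Tcf7 therefore lacked a start summit in all 3 libraries, and the start of Gata3 lacked one in 2.

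**Figure D3:**
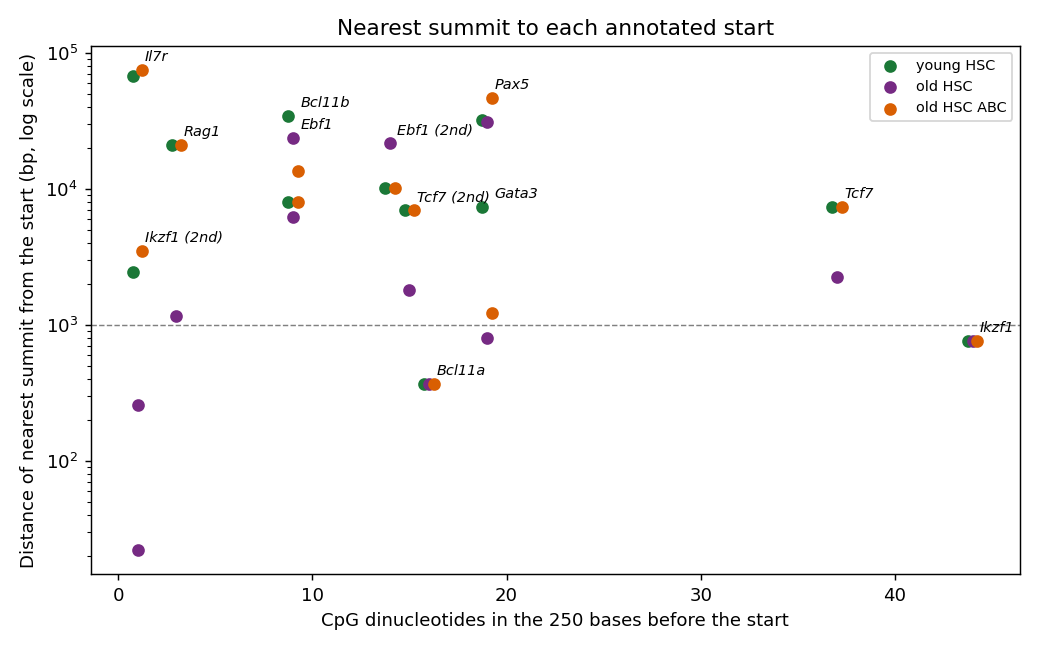
Points give, for each annotated start of 9 genes, the distance of the nearest summit in bp (y axis, log scale) in each library against the number of CpGs in the 250 bases before that start (x axis); the dashed line marks 1 kb, and "2nd" marks the inner start of a gene with a pair. Only Ikzf1 and Bcl11a have points of all 3 libraries under the line, and Pax5 and Tcf7 have none there in spite of 19 and 37 CpGs.

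Ranks of the window summits ran over most of each list. The best were 605 (Tcf7 window), 3219 (Tcf7) and 1390 (Rag1), all 3 at starts of neighbouring genes. The median rank lay at 57.1%, 52.3% and 45.8% of the list, and 2 of 23, 5 of 91 and 2 of 29 summits were in the top 10% of their list. Of these 9 summits, 1 young-labelled and 2 old-labelled ones belonged to the starts of Ikzf1 and Bcl11a, and the other 6 lay in records of other protein-coding genes.

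**Figure D4:**
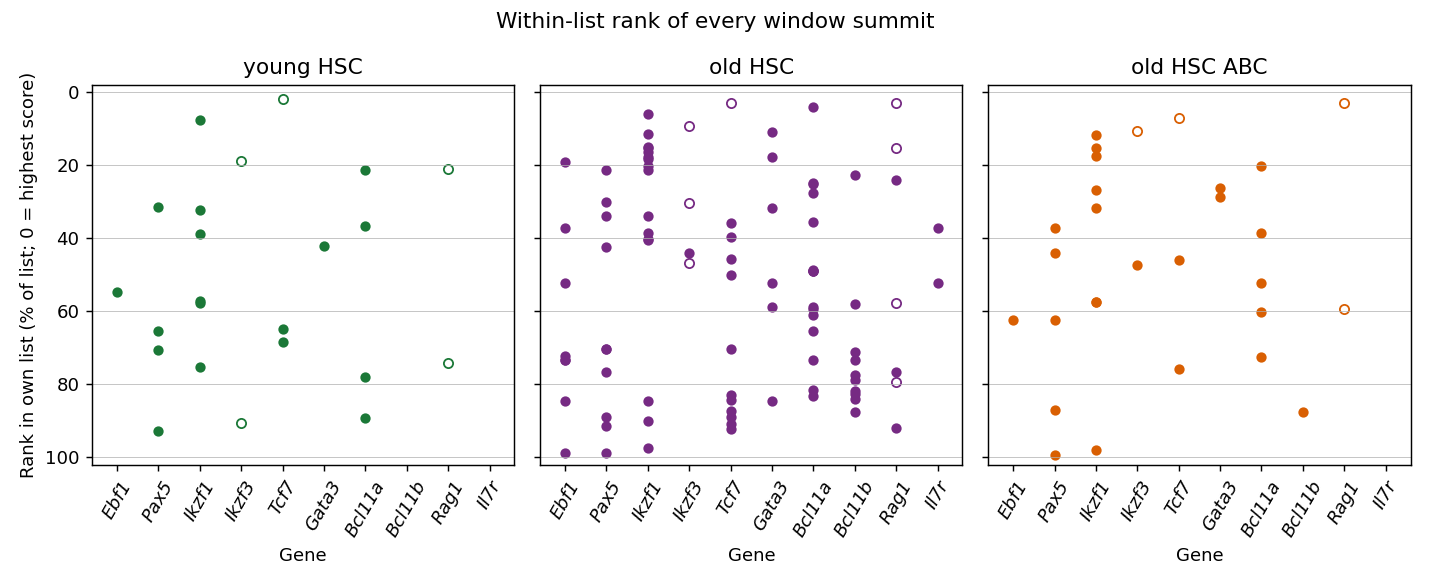
Each circle is 1 window summit, placed by its rank as a percentage of its own list (y axis, 0 at the top is the highest score) for each gene (x axis) in the 3 libraries. Open circles lie in the record of another protein-coding gene, and they make the best-ranked summit of Ikzf3, Tcf7 and Rag1 in every library.

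Sharing of positions was read within 500 bp. Of the 23 young-labelled window summits 15 had an old-labelled neighbour (65.2%, 95% Clopper-Pearson interval 42.7 to 83.6), beside 77.4% in the whole list, and 14 had an ABC-labelled one (60.9%, 38.5 to 80.3), beside 59.0%. Of the 29 ABC-labelled ones 22 had an old-labelled neighbour (75.9%, 56.5 to 89.7), beside 72.3%, and 14 a young-labelled one (48.3%, 29.4 to 67.5), beside 43.5%. Of the 91 old-labelled ones 15 had a young-labelled neighbour (16.5%, 9.53 to 25.7), beside 23.8%. An ABC-labelled neighbour was found for 22 of these 91 (24.2%, 15.8 to 34.3), beside 30.2%. These intervals cover counting error only, and they contain the values of the whole lists. Of the 10 young-labelled summits ranked above the middle of their list 9 had an old-labelled neighbour, and of the 13 below it 6 did, beside 87.3% and 67.5% over all summits. The windows held 105 separate positions as deposited, 13 of them in all 3 libraries and 80 in 1, of which 67 were old-labelled. Most old-labelled summits of the whole list were likewise unshared, by the shares above. In equal-length lists there were 42, with 11 in all 3 libraries, 9 old-labelled alone, 8 young-labelled alone and 6 ABC-labelled alone. Those 11 were at Ikzf1 (3), Bcl11a (2), Rag1 (2, both at Iftap and Rag2 starts), and Pax5, Ikzf3, Tcf7 and Gata3 (1 each), and Ebf1, Bcl11b and Il7r had none. The split of positions by number of libraries is not given for the whole lists.

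Per 100 kb of window the median of the 10 genes in equal-length lists was 1.71, 1.47 and 2.12 summits, beside 2.45, 2.44 and 2.41 over all protein-coding genes. Ikzf1 was the densest, with 4.69, 7.03 and 5.47 per 100 kb (percentiles 71.3, 87.8 and 78.5 among all genes). Rag1 followed in the old- and ABC-labelled lists with 5.85 and 3.90 (percentiles 80.2 and 63.7), through summits of its neighbours. Ebf1 lay at percentiles 28.4, 27.01 and 27.9 and Il7r at 14.02, 13.4 and 13.8. The percentile spread most between libraries for Tcf7 (62.5, 32.9 and 52.02) and Gata3 (34.8, 53.1 and 53.7), which is a difference of 1 or 2 summits.

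**Figure D5:**
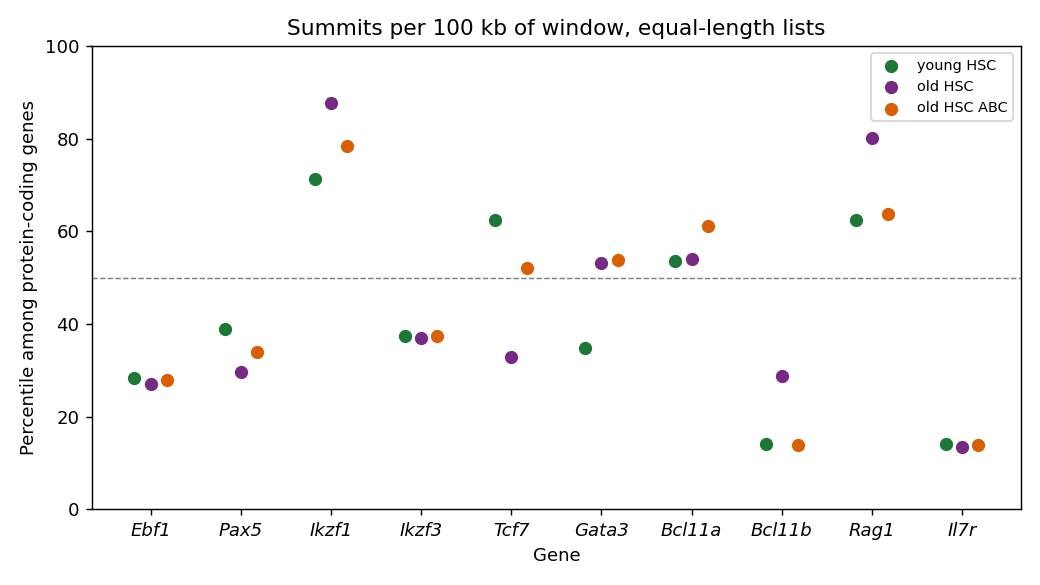
Points give the percentile of each gene (x axis) among 21883 protein-coding genes by summits per 100 kb of window in equal-length lists (y axis), 1 point per library. Ikzf1, Bcl11a and Rag1 lie above the dashed median line in all 3 libraries and Ebf1, Pax5, Ikzf3, Bcl11b and Il7r lie below it in all 3.

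The comparison of old with young HSCs asked how age bears on the mark. A gene was called for 1 side if its window held at least 2 times and at least 2 more summits there. As deposited all 10 genes were called for the old-labelled side (56.3% of all genes were) and none for the young-labelled side (0.0868%). In equal-length lists none was called for the old-labelled side (6.52%), and Pax5 (4 against 2) and Tcf7 (3 against 1) were called for the young-labelled side (6.49%). By presence alone, Bcl11b and Il7r had a window summit in the old-labelled list and none in the young-labelled as deposited (9.92% of all genes), and Bcl11b did in equal-length lists (4.35%). The reverse held for none of the 10 in either setting (0.133% as deposited and 3.03% in equal-length lists). The direction of the fold call thus differed between lists as deposited and equal-length lists. With 1 score minimum for both libraries, 6 genes were called for the old-labelled side at scores of at least 5 and 2 at 10. The share of all genes at these minimums is not given, and the cause was not tested.

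The old HSC ABC and old HSC libraries differ by the ABC label, and their comparison shares the old-labelled library with the comparison above. As deposited all 10 genes were called for the old-labelled side (45.4% of all genes) and none for the ABC-labelled side (0.251%). In equal-length lists none was called for either side (7.22% and 6.26% of all genes). By presence, Il7r was on the old-labelled side as deposited (6.01%) and Bcl11b in equal-length lists (4.14%), and none was on the ABC-labelled side (0.407% and 3.35%). In the ABC-labelled equal-length list Pax5 and Tcf7 held 3 and 2 summits, between their counts in the other libraries.

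A list of 68 other genes of lymphoid development gave the setting. Of these 61, 68 and 65 had a window summit, that is 89.7% (95% Clopper-Pearson interval 79.9 to 95.8), 100% (94.7 to 100) and 95.6% (87.6 to 99.1), beside the shares of all genes given above, and 61, 61 and 64 in equal-length lists. Among 16 early lymphoid and E protein genes all had one as deposited, and the best ranks were at Spi1, the gene for the myeloid and B cell factor PU.1 (273, young-labelled), Runx3 (750, old-labelled) and Satb1, a chromatin organiser of lymphocytes (279, ABC-labelled). These summits lay in the records of the genes themselves. The T lineage group (18, 20 and 19 of 20) was led in all 3 libraries by Cd3g and Cd3d, chains of the T cell receptor complex (293, 341 and 165), whose windows share a summit 128 to 134 bp from the start of Ube4a. The B lineage group (13, 15 and 14 of 15) was led by Vpreb1, a surrogate light chain (747, young-labelled), through a summit at the start of Top3b, and by Cd79b, a B cell receptor subunit (1117, old-labelled), in its own record. The cytokine group (14, 17 and 16 of 17) was led in the young- and ABC-labelled lists by Il15ra, the IL-15 receptor alpha chain, through a summit 461 and 404 bp from its own start (151 and 344). The window of the adjoining Il2ra, the IL-2 receptor alpha chain, holds the same summit and tied with it. The group was led by Tslp in the old-labelled list (162), through one in the record of Wdr36. The leading summits of the Cd3g, Cd3d, Vpreb1 and Tslp windows thus lay in the record of a neighbouring gene, as did those of the Tcf7, Ikzf3 and Rag1 windows.

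No gene of this list was without a window summit in all 3 libraries as deposited. Cd8a, a T cell coreceptor, was the one gene with a window summit in 1 equal-length list only, the ABC-labelled. By summits per 100 kb in the 3 equal-length lists (sum of absolute differences), the gene nearest to Gata3 was Runx1 (0.882), to Pax5 Zbtb16 (0.918), to Rag1 Rag2 (0.989, with shared summits), to Bcl11a Tcf4 (1.05), to Ikzf1 Jak3 (1.41) and to Tcf7 Cd74 (1.496). Pou2af1 and Crlf2, with no summit in any equal-length list, were nearest to Il7r (0), Ebf1 (0.698) and Bcl11b (0.748). With 3 values per gene this is a description.

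Markers were read in the same way, and those without a tabled start were read at both record ends, as Ikzf3 was. All 8 HSC markers (among them Procr, Hlf, Mecom, Kit, Meis1, Slamf1 and Fgd5) had a window summit in each library, and 5, 8 and 4 had one within 1 kb of a start. Start summits stood at 1, 2 and 1 of 7 mature B cell markers, 0, 1 and 1 of 7 T and NK cell markers, 4, 6 and 3 of 8 neutrophil and monocyte markers, 1, 2 and 2 of 5 erythroid markers, 1, 3 and 2 of 4 megakaryocyte markers and 0, 3 and 0 of 6 genes of other tissues. Window summits stood at all 7 B cell markers in each library, at 4, 6 and 5 T and NK cell markers, at 7, 8 and 7 neutrophil and monocyte markers, at 5, 5 and 4 erythroid markers, at 3, 4 and 4 megakaryocyte markers and at 4, 6 and 4 genes of other tissues. Cd79a, Cd79b, Cd3d, Cd3e, Cd8a and Cd4 are among the markers that are also in the list of 68. Over all protein-coding genes the shares were 72.0%, 81.7% and 76.1% for window summits. For start summits they were 45.5%, 57.9% and 46.3% of the genes with a tabled start. That measure is unlike the marker counts, which include markers read at record ends. Among these was Cd79b, the only B cell marker counted in the young- and ABC-labelled libraries. Window summits therefore stood at genes of other tissues too. Start summits at those genes were old-labelled alone in the lists as deposited, and marker starts were not counted in equal-length lists. The part of other cell types in the summits of the 10 genes was not tested. The best-ranked windows were those of Cr2 (82, 73 and 97) for B cells, Cd3d (293, 341 and 165) for T cells, S100a9 (41, young-labelled) and S100a8 (13 and 807) for neutrophils, Klf1 (6410 and 4238) and Alas2 (4383, old-labelled) for erythroid cells, Pf4 (17529, young-labelled) and Gp9 (17552 and 14017) for megakaryocytes, Meis1 (3117, young-labelled) for HSCs and Actn2 (1157, 1667 and 1866) for other tissues. Of these leading summits those of S100a9, S100a8 and the old-labelled one of Gp9 lay in the record of the marker itself, and the others lay outside it, that of Cd3d being the summit at the start of Ube4a.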

How the data were processed

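H3K9ac CUT&Tag was done on sorted mouse HSCs, with 3 libraries, 1 in each group. The submitters' processing notes name mm10 and the tools BWA, Picard, MACS2 and edgeR, without roles. Their versions, any control library and the peak settings are unknown (not given in the sources used here). The deposited lists hold summits of 1 bp with a score, read as a −log10 q-value because its lowest value, 1.30 in all 3 lists, is that of q = 0.05. Peaks were treated as called in each library on its own, since every list is tied to 1 sample. Read depth is unknown, so intervals cover numbers of summits only.

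Positions are 1-based. Gene records and start sites came from RefSeq tables of GRCm38.p6, where 9 of the 10 genes had a start. Summits were counted per window with Python 3.11.15, pandas 2.3.3 and scipy 1.17.1, after the counting was tested on simulated positions. Tied scores share the better rank. Percentiles take the middle of tied genes. Exons and UTRs were not analysed here. The genes, lists and rules were chosen with earlier results of these data known. Genes named by rule were the 10 genes, those overlapping their windows, and, of the other lymphoid genes, the best-ranked per group and library, any with no summit or a summit in 1 equal-length list only, and the nearest by density. Others were named after their values were seen. A few genes that the rule or the lists hold are not reported here by name. Alternatives were score minimums of 5 and 10, equal-length lists, windows of 0, 5 and 50 kb, merging within 500 bp, sharing within 250 or 1000 bp, starts within 500 bp or 2 kb, and leaving out summits in other genes. For the calls between libraries they were added after seeing the data.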

Additional observations from a re-analysis of the deposited data

How the results depend on the processing

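Each group is 1 library of unknown depth, so the length of a list and the group cannot be told apart. No paired analysis was possible because each group has 1 library and no test was run. Over all alternatives 130 values of the main results stayed close to the reported ones (counts within 1.5 times, shares within their intervals) and 52 did not. The 52 are given here. Alternatives use fewer summits or bases, or more for windows of 50 kb, and the cause of each shift was not tested.

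Window summits numbered 10, 33 and 11 (young, old and ABC) at scores of at least 5, and 2, 10 and 4 at scores of at least 10. The old-labelled count was 25 in the equal-length list. The young-labelled count was 14 for windows of 0 and of 5 kb and 40 for 50 kb, and the ABC-labelled count was 56 for 50 kb. The share of young-labelled summits near an old-labelled one was 90% at scores of at least 5 and 100% at 10, and near an ABC-labelled one 100% at 10. Old-labelled summits lay near young-labelled ones in 48% (equal-length) and 27.3% (scores of at least 5), and near ABC-labelled ones in 60% (equal-length) and 40% (scores of at least 10). In the whole equal-length list 55.1% of old-labelled summits lay near a young-labelled one and 55.5% near an ABC-labelled one. ABC-labelled summits lay near young-labelled ones in 72.7% (scores of at least 5), and near old-labelled ones in 90.9% and 100% (scores of at least 5 and 10). The shares of 100% rest on 2 young-labelled and 4 ABC-labelled summits. Whole-list shares at score minimums are not given, so the shares at those minimums show nothing particular to the 10 genes.

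Genes above the median density of all genes numbered 2 in the young-labelled list at scores of at least 10 and for 5 kb, 2 in the old-labelled list at scores of at least 10, and 5 in the ABC-labelled list for equal-length lists and for 0 and 50 kb. Genes with a start summit numbered 1 in the young- and in the ABC-labelled list at scores of at least 10 and within 500 bp, and 2 in the old-labelled list for equal-length lists and scores of at least 5 or 10. The share of all genes with a start summit is not given for the score minimums or for 500 bp. Start counts at those settings therefore show nothing particular to the 10 genes. At scores of at least 10, 27 of the 68 other lymphoid genes had a young-labelled window summit, and 27 an ABC-labelled one. Of all protein-coding genes 38.8% and 34.9% did at this minimum. The old-labelled count there was 48, beside 63.4% of all genes.

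The following alternatives were chosen after seeing the data. Shares of all genes called are given above for equal-length lists only. For the other settings no such share is given, so those counts show nothing particular to the 10 genes. Genes called for old over young by fold numbered 0 in equal-length lists, 6 at scores of at least 5 and 2 at 10, and those called for young over old 2 in equal-length lists. Genes with old- but no young-labelled summits numbered 1 (equal-length and 50 kb), 4 (scores of at least 10) and 5 (0 and 5 kb). Genes called for old over ABC numbered 0, 5 and 1 (equal-length, scores of at least 5 and 10), and those with old- but no ABC-labelled summits 4 (scores of at least 5), 2 (scores of at least 10) and 4 (0 and 5 kb).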

Other observations

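Some other lymphoid genes had a window summit in the old- but not the young-labelled equal-length list, and others the reverse. Ccr7 and Ccr9, chemokine receptors that guide lymphoid cells to lymph nodes and thymus, Eomes, a factor of cytotoxic cells, and Dntt, the template-free polymerase of antigen receptor joining, had 5, 1, 1 and 2 old-labelled window summits there, 1, 1, 2 and 3 ABC-labelled ones and no young-labelled one. These 4 are 5.88% of the 68 other lymphoid genes, beside 4.35% of all genes on that side. Conversely 4 others (5.88% of the 68, beside 3.03% of all genes) had young- but no old-labelled window summits. Blnk, an adaptor of B cell receptor signalling, Id3, an inhibitor of E proteins, Hes1, a target of Notch, and Thy1 had 2, 1, 2 and 1 young-labelled and 3, 1, 1 and 1 ABC-labelled window summits in equal-length lists. All of these had old-labelled summits as deposited (6, 2, 2 and 2). They are named here because of these values, so the counts support nothing.

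Shared summits of the 10 genes lay a median of 5 bp (young to old), 30.5 bp (young to ABC) and 42 bp (ABC to old) apart, beside 89, 86 and 87 bp over the whole lists. Of the 15 young-labelled window summits with an old-labelled neighbour 8 were within 10 bp of it, beside 22.2% of the 25695 such summits of the whole list, and for the 14 with an ABC-labelled neighbour the count was 5, beside 22.1%. For the 22 ABC-labelled ones with an old-labelled neighbour it was 7, beside 21.7%. These counts are small and were not tested.

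Just inside the 20 kb limit lay an old-labelled summit 19313 bp from the Bcl11a record (score 4.18), and just outside it one 20919 bp from the Ikzf1 record (score 3.33). Beyond the windows, the first old-labelled summit near Rag1 lay 29.4 kb from its record, at the start of Traf6 (rank 1739), and that near Pax5 46.2 kb away, at the start of Zcchc7 (rank 202). That near Ikzf3 was at the start of Mien1, 25.8 kb away (rank 9401).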
